A study of Danio rerio with 12 samples.

Results

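The 6 control libraries of a zebrafish RNA-seq series were compared between 12hpf and 6hpf (hours post fertilization), 3 at each stage, of 12 libraries in all. They were taken by their labels, as the libraries of control embryos. The other 6 libraries, also 3 at each stage, came from TALE KD embryos, in which the transcription factors Pbx2, Pbx4 and Prep1.1 (pknox1.1 in the tables) were knocked down together with morpholinos. All embryos were of the Ekwill strain. The morpholinos were injected in water with phenol red dye at the 1 to 2 cell stage. The paper's text does not state whether the RNA-seq controls were injected, so they are taken here only as control embryos. Each library was made from polyA RNA of a pool of whole embryos, so a value is an average over all tissues, and fewer cells of a type cannot be told apart from less RNA per cell. The study used these stages as the early gastrula (6hpf) and the segmentation stage (12hpf), and it compared knockdown with control at each. The question taken up here is which genes appeared, which were cleared and which took most reads as control embryos passed between these stages.

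A zebrafish egg is loaded with maternal mRNA, which runs the first cleavages and is then destroyed while the zygotic genome is switched on. By the early gastrula the zygotic genes of germ layer formation and of the dorsal organizer are active, and cells begin to move inward over the yolk. By segmentation the body axis has extended, somites (the blocks that form muscle and vertebrae) are being added, the neural plate is divided into forebrain, midbrain, hindbrain and spinal cord, and the hatching gland, blood and heart precursors have been set aside.

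The 12hpf libraries held 21747580 to 24933118 counts and the 6hpf libraries 13337648 to 15031222, so every 12hpf library was the deeper. Levels below are CPM, read counts scaled to the size of each library with TMM factors of 1.08 to 1.11 at 12hpf and 0.897 to 0.931 at 6hpf. They are shares of the polyA RNA in a library, since the RNA per embryo was not measured. Genes at 1 CPM or more numbered 10483 to 10511 in the 12hpf libraries and 9861 to 9953 in the 6hpf libraries. Of these, 9045 reached 1 CPM in all 6 libraries, 1212 in all 3 libraries of 12hpf alone and 481 in all 3 libraries of 6hpf alone. Replicates 1 and 2 at 12hpf were closer to each other (chi-square per degree of freedom 2.70) than to replicate 3 (13.6 and 13.03), while the 6hpf libraries differed by 9.67 to 15.03. Stage and deposited table go together here and cannot be told apart. Depth goes with them as well, and with the 12hpf counts thinned to the 6hpf depth 6440 genes were called, of which 6385 were also called on the full counts and 0 in the opposite direction.

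Of 14850 genes listed, 11364 averaged 10 counts or more across the control libraries and were tested. A gene is called higher or lower where edgeR's adjusted p was at most 0.01 and the fold-change at least 1.5, the thresholds of the study. By this rule 6689 genes were called (58.9%), of which 3675 rose at 12hpf (32.3% of those tested) and 3014 fell (26.5%). The stages did not overlap in 9227 genes, 81.2% of those tested. With library totals in place of TMM the calls were 4465 higher and 2275 lower, so that higher genes made up 66.2% of calls in place of 54.9%. That scaling shifted the median log2 fold-change of all genes by 0.25. Upper-quartile scaling gave 4244 higher and 2453 lower (63.4%), with a shift of 0.19. The direction of a small change therefore depends on the scaling, and fold-changes below are read against a median of 0.07 over all genes tested.

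The larger the change, the more the rises outnumbered the falls. At 2-fold or more, 2856 genes rose and 1993 fell. At 8-fold or more the counts were 965 and 367, and at 32-fold or more 431 and 71, a ratio of 6.07. The 196 genes counted below as switched on had a median log2 fold-change of 7.41. Of these, 0 had a mean of 10 counts at 6hpf, so they passed the count filter through the deeper 12hpf libraries. No counts were recorded at 6hpf for 32 of them, whose fold-changes rest on fitted values. The ratio therefore describes the calls and does not measure how far rises outweighed falls. Of the 7 marker genes set for the gastrula (gsc, ndr1, chd, mixl1, ta, vox and vent) all fell. Of the 8 set for segmentation (myod1, myog, egr2b, pax2a, hoxb1a, elavl3, tal1 and he1a) all rose. These directions match the stages on the labels. Several segmentation markers, he1a and myog among them, had no counts at the earlier stage. They passed the count filter through the later stage alone and had to differ, so the number that rose carries no weight as evidence.

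**Figure D1:**
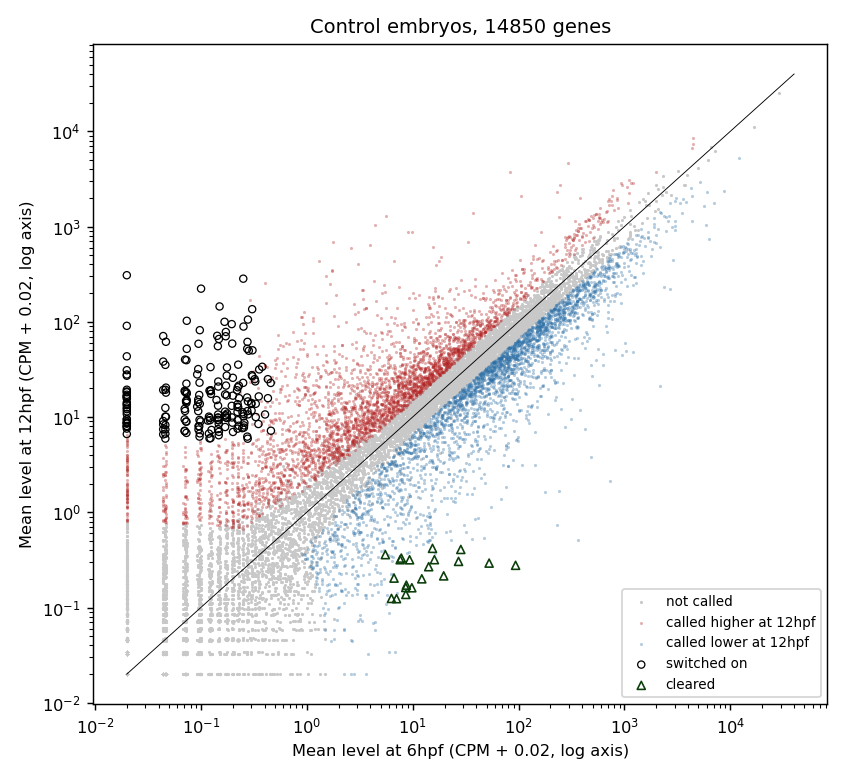
Mean level of each of 14850 genes in control embryos, at 12hpf (vertical axis) against 6hpf (horizontal axis), both in CPM + 0.02 on log axes, with the diagonal as equal levels. Red and blue points are genes called higher and lower at 12hpf, circles are the 196 switched-on genes at the left edge and triangles the 20 cleared genes along the bottom.

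A gene was counted as switched on where every 6hpf library lay under 0.5 CPM and every 12hpf library at or over 5 CPM, and as cleared in the mirror case. These are descriptions of levels, and no test was made on them. There were 196 switched-on genes and 20 cleared genes. The switched-on genes averaged 5.91 to 308 CPM at 12hpf with a median of 13.7, and together they made up 0.503 to 0.515% of the CPM of a 12hpf library. No count at all was recorded at 6hpf for 32 of them, and 25 reached 50 CPM at 12hpf. These 196 were of 14850 genes listed. They held 25 of 48 Hox genes and 20 of 66 members of the neural plate list described below. The lists were chosen with earlier results of these data known, so these counts describe the genes and support nothing. No cleared gene was at 0 counts in all 12hpf libraries, and only 2 of the 20 averaged 50 CPM or more at 6hpf. The asymmetry held at every threshold and depth tried, with 176 to 233 switched-on genes and 16 to 29 cleared genes.

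A hatching gland gene, he1a, was the highest of the switched-on genes. The gland, at the front of the embryo secretes proteases that later dissolve the egg envelope. The hatching enzyme gene he1a had 277, 294 and 354 CPM in the 12hpf libraries, against 0 counts in all 3 libraries of 6hpf. Its level was at least 3983-fold higher at 12hpf, taking 3 counts over the 6hpf group as the floor. For its close copy he1b the values were 94.7, 92.5 and 85.0 CPM at 12hpf, again against 0 counts at 6hpf, at least 1180.0-fold higher. Reads of copies as alike as these are divided between them by the estimation, so the sum of he1a and he1b is firmer than either value. The gland marker ctslb, a cathepsin gene, was not counted as switched on because it was already present, with 678, 684 and 721 CPM at 12hpf against 2.09, 1.23 and 1.97 CPM at 6hpf (log2 fold-change 8.63 ± 0.14 SE, edgeR adjusted p = 1.42e-09). For all 3 genes each 12hpf library lay far above each 6hpf library. Of 11 tested members of the hatching gland list 7 rose (all genes 32.3%), 1 fell (all genes 26.5%) and 3 were not called. At 6hpf 8 of the 11 had a mean of 10 counts. The Kruppel-like factor gene klf17, which acts in the forming gland, was the member that fell, with 107, 111 and 94.1 CPM at 12hpf and 276, 265 and 279 CPM at 6hpf.

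A few genes tied to retinoic acid, the signal that patterns the hindbrain and spinal cord, were picked out after their values were seen, with no list or test behind the grouping. By level at 12hpf nr2f5 had rank 2 of the 196 switched-on genes, crabp2a rank 4 and cyp26b1 rank 40. The nuclear receptor gene nr2f5 had 268, 276 and 308 CPM at 12hpf, against 0.242, 0.217 and 0.236 CPM at 6hpf, where each library held 3 counts. The log2 fold-change reached 10.22 ± 0.15 (SE, edgeR adjusted p = 1.34e-09). The retinoic acid binding protein gene crabp2a had 142, 154 and 139 CPM at 12hpf and 0.161, 0.0724 and 0.157 CPM at 6hpf. The enzyme gene cyp26b1, which breaks retinoic acid down, had 29.2, 30.2 and 24.6 CPM at 12hpf against 0 counts at 6hpf, at least 364-fold higher. In the opposite direction aldh1a2, whose product makes retinoic acid, fell to 45.5, 39.3 and 47.1 CPM at 12hpf against 153, 166 and 131 CPM at 6hpf (log2 fold-change -1.77 ± 0.11, edgeR adjusted p = 5.73e-07).

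Other genes among the 10 highest switched on were MGC174152, a locus named by a clone number, the tight junction gene cldni, the carboxylesterase gene ces2, and the Hox genes hoxb9a, hoxc3a and hoxc8a. The level of ces2 was uneven at 12hpf, with 127, 128 and 61.3 CPM against 0.322, 0.217 and 0.236 CPM at 6hpf, replicate 3 being the low library. MGC174152 had 182, 204 and 282 CPM at 12hpf, with 3 counts in all at 6hpf, a ratio of 2867 with a counting interval of 981 to 13904. The Claudin gene cldni had 143, 153 and 111 CPM at 12hpf against 0.403, 0.217 and 0.236 CPM at 6hpf. By the switched-on rule none of these genes could overlap between the stages.

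By size of change among genes with a mean of 10 CPM or more at the higher stage, the 15 largest rises were led by he1a and he1b, the order among genes at 0 counts resting on fitted values. After these came mab21l2, lhx2b and cyp26b1. The eye and midbrain gene mab21l2 had 39.1, 38.6 and 52.5 CPM at 12hpf and 0 counts at 6hpf, at least 559.5-fold higher. The forebrain LIM homeobox gene lhx2b had 33.2, 32.9 and 27.0 CPM at 12hpf and 0 counts at 6hpf, at least 404-fold higher. For the neural SoxB1 gene sox1b the values were 18.7, 19.6 and 19.8 CPM at 12hpf and 0 counts at 6hpf, at least 251-fold higher. The remaining 9 of the 15 were all Hox genes, and all but hoxb10a among them had 0 counts in every 6hpf library.

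**Figure D2:**
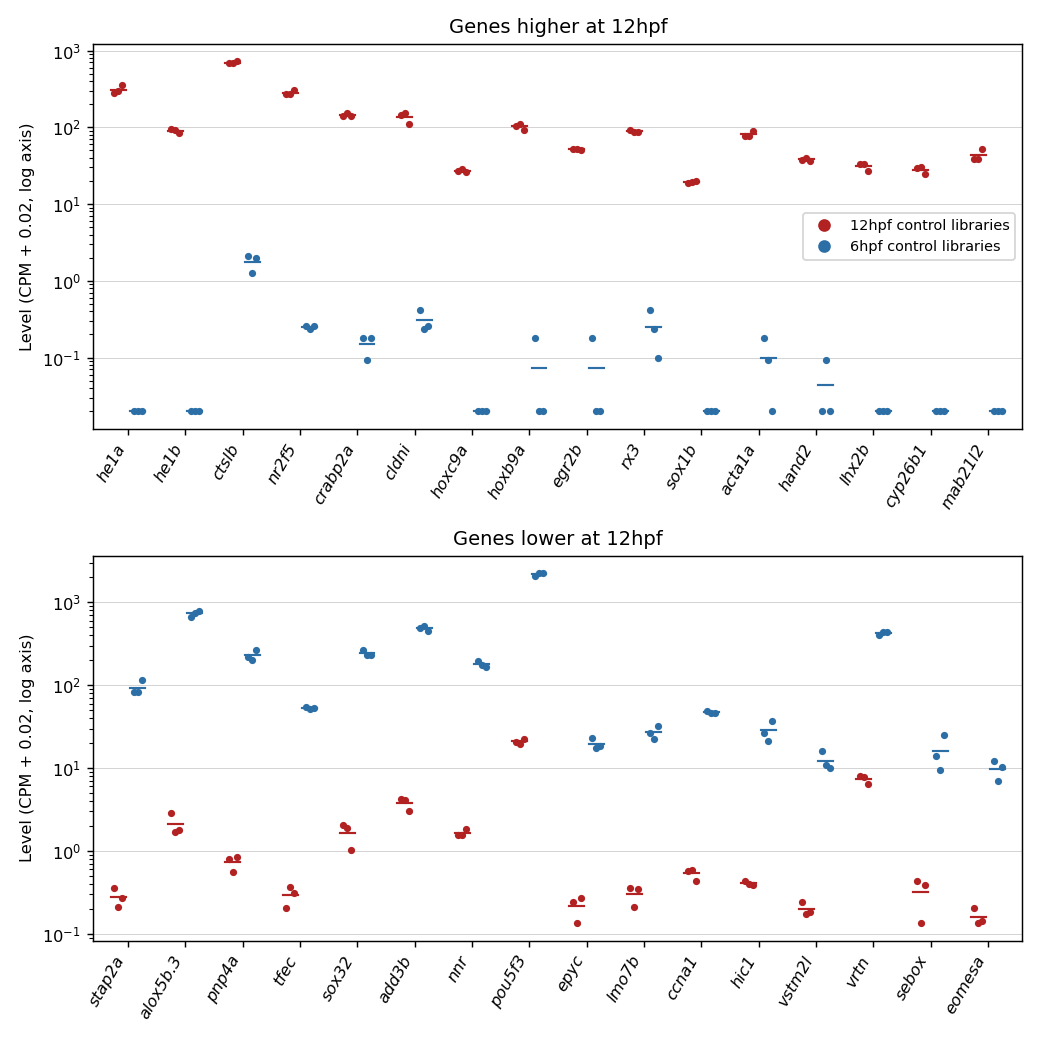
Level in each control library of 16 genes that were higher at 12hpf (upper panel) and 16 that were lower (lower panel), in CPM + 0.02 on a log axis, with a dash for the mean of each stage. Red points (12hpf) stand left of blue points (6hpf) for each gene, and the stages do not overlap in any of these genes. For all but ctslb this follows from the rules for switched-on genes, cleared genes and largest changes, which left out overlapping genes. Points on the bottom line of the upper panel are libraries with 0 counts.

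Hox genes encode the transcription factors that give each level of the hindbrain and trunk its identity, with low numbers acting toward the head and high numbers toward the tail. The tables list 48 of them, and 8 had too few counts to be tested. All 40 tested Hox genes were called higher at 12hpf, beside 32.3% of all genes tested. Only 2 of the 40 had a mean of 10 counts at 6hpf. The others passed the count filter only through the deeper 12hpf libraries, which favoured a rise, so their number carries no weight as evidence. Hox genes summed to 1018, 1035 and 984 CPM in the 12hpf libraries, against 7.49, 11.4 and 4.80 CPM in the 6hpf libraries. The median log2 fold-change of the 40 was 9.35 as fitted and 7.74 with the 21 genes at 0 counts set to their bounds, beside 0.07 over all genes tested.

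The Hox genes differed in how far they were already present in the gastrula. The gene hoxb1b acts in the hindbrain and is known as one of the first Hox genes expressed in zebrafish. It had 138, 134 and 132 CPM at 12hpf, against 2.66, 6.44 and 1.18 CPM at 6hpf. Its mean was the highest of the Hox genes at both stages, though in 6hpf replicate 3 it lay below hoxb1a. These 2 stages do not order the onset of the genes. Its 6hpf libraries varied widely among themselves and still did not approach the 12hpf level (log2 fold-change 5.27 ± 0.35, edgeR adjusted p = 9.72e-07). The related hoxb1a, a marker of rhombomere 4, had 30.4, 29.0 and 30.4 CPM at 12hpf and 1.53, 1.67 and 1.26 CPM at 6hpf. Trunk and tail members were high at 12hpf as well. The gene hoxb9a had 105, 109 and 93.6 CPM at 12hpf and 2 counts in all at 6hpf, a ratio of 2000.5 with a counting interval of 554 to 16522. For hoxb10a, with 72.0, 74.9 and 65.6 CPM at 12hpf and 1 count in all at 6hpf, the ratio was 2764 with an interval of 496 to 109184. The group 9 gene hoxc9a had 26.7, 28.4 and 26.3 CPM at 12hpf against 0 counts at 6hpf, at least 352.5-fold higher, and hoxd10a had 18.03, 17.94 and 18.61 CPM against 0 counts, at least 236-fold higher. At the other end hoxc11a had 1.00, 0.840 and 0.868 CPM at 12hpf and 0.0805, 0.362 and 0.236 CPM at 6hpf (log2 fold-change 1.94 ± 0.44, edgeR adjusted p = 0.00275). That call was lost with DESeq2 (adjusted p = 0.0102). In edgeR it was lost with a block on replicate number (adjusted p = 0.0102) and without 12hpf replicate 1 (adjusted p = 0.0109).

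Pbx, Prep and Meis proteins are the TALE homeodomain partners that bind DNA with Hox proteins, and the knockdown in this series targets 3 of them. The list of these genes was also given tgif1, which is not a Pbx, Prep or Meis gene. Of 13 tested list members 9 rose (all genes 32.3%), 2 fell (all genes 26.5%) and 2 were not called. At 6hpf 9 of the 13 had a mean of 10 counts. Meis genes and pknox2 were among those that rose. The gene meis1b had 167, 159 and 166 CPM at 12hpf against 4.27, 6.15 and 3.15 CPM at 6hpf, and meis3 had 138, 139.8 and 141 CPM against 8.13, 7.46 and 5.67 CPM. The largest change was that of meis2b, with 99.3, 108 and 97.9 CPM at 12hpf and 0.886, 2.099 and 0.394 CPM at 6hpf (log2 fold-change 6.45 ± 0.28, edgeR adjusted p = 7.23e-08). The targets of the knockdown did not follow them. In control embryos pknox1.1 fell to 46.6, 48.0 and 49.0 CPM at 12hpf against 146, 139.6 and 124 CPM at 6hpf (log2 fold-change -1.51 ± 0.08, edgeR adjusted p = 2.83e-07). The gene pbx4 had 328, 308 and 280.3 CPM at 12hpf and 331, 354 and 361 CPM at 6hpf, and pbx2 had 83.2, 90.1 and 87.3 CPM and 104, 109 and 109 CPM, neither of them called. The summed level of all 13 members lay at 1204 to 1255 CPM at 12hpf and 1080.0 to 1128 CPM at 6hpf.

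The neural plate list holds transcription factors and early markers of forebrain, midbrain, hindbrain and spinal cord. Of 61 tested members 48 rose, 5 fell and 8 were not called, with a median log2 fold-change of 5.22, beside 32.3% higher and 26.5% lower among all genes tested. Only 27 of the 61 had a mean of 10 counts at 6hpf. The others passed the filter only through the deeper 12hpf libraries, which favoured a rise, so these counts describe the members and support nothing. A further 5 listed members had too few counts. The same limit holds for the tissue lists that follow. The hindbrain gene egr2b (krox20), which marks rhombomeres 3 and 5, had 52.1, 52.5 and 51.4 CPM at 12hpf and 2 counts in all at 6hpf, a ratio of 1012 with a counting interval of 280.0 to 8361. The eye field gene rx3 had 93.0, 87.3 and 87.1 CPM at 12hpf, against 0.403, 0.217 and 0.0787 CPM at 6hpf. The midbrain-hindbrain boundary gene pax2a had 59.4, 57.6 and 59.1 CPM at 12hpf and 0.242, 0.796 and 0.945 CPM at 6hpf. These 3 genes marked separate brain regions, and all were nearly absent from the gastrula libraries.

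Genes of neuron formation rose as well. The proneural gene neurog1 had 42.0, 40.8 and 38.7 CPM at 12hpf and 0.564, 0.941 and 0.394 CPM at 6hpf (log2 fold-change 5.97 ± 0.19, edgeR adjusted p = 1.37e-08). The neuronal RNA-binding protein gene elavl3 had 26.4, 25.3 and 24.1 CPM at 12hpf and 0.161, 0.434 and 0.709 CPM at 6hpf. Some anterior genes were already expressed in the gastrula. The anterior forebrain gene six3b had 145, 142 and 133 CPM at 12hpf and 17.7, 16.5 and 9.13 CPM at 6hpf, and her9 had 192, 193 and 191 CPM and 13.7, 14.6 and 5.83 CPM. In both, replicate 3 was the lowest of the 6hpf libraries.

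The SoxB1 genes, which keep cells in a neural progenitor state, went different ways. Against the rise of sox1b, sox3 fell to 176, 171 and 198 CPM at 12hpf against 468, 454 and 518 CPM at 6hpf (log2 fold-change -1.40 ± 0.08, edgeR adjusted p = 4.51e-07). The gene sox19a fell to 484, 485 and 473 CPM at 12hpf against 844, 878 and 899 CPM at 6hpf (log2 fold-change -0.86 ± 0.06, edgeR adjusted p = 8.69e-07). The gene sox2 had 89.8, 86.0 and 81.1 CPM at 12hpf and 110.2, 125 and 112 CPM at 6hpf, a difference smaller than 1.5-fold. Another gene of the anterior plate that fell was lhx5, with 11.8, 11.4 and 11.6 CPM at 12hpf and 104, 104 and 91.5 CPM at 6hpf (log2 fold-change -3.11 ± 0.09, edgeR adjusted p = 8.63e-09).

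Neural crest cells leave the border of the neural plate to form pigment cells, peripheral neurons and parts of the face, and placodes form lens, ear and nose. Of 29 tested members of this list 22 rose, 2 fell and 5 were not called, with a median log2 fold-change of 2.61 (all genes 32.3% higher and 26.5% lower), and 19 of the 29 had a mean of 10 counts at 6hpf. The lens and pituitary gene pitx3 had 34.2, 34.0 and 27.5 CPM at 12hpf and 0, 0.145 and 0.0787 CPM at 6hpf. The crest genes sox9b and sox10 rose too, sox9b with 58.5, 49.3 and 42.8 CPM at 12hpf and 0.403, 0.145 and 0.315 CPM at 6hpf. For sox10 the values were 22.4, 18.5 and 22.5 CPM at 12hpf and 1.53, 1.30 and 1.65 CPM at 6hpf (log2 fold-change 3.82 ± 0.16, edgeR adjusted p = 7.15e-08). The crest transcript crestin was the least stable of those named, with 75.5, 80.1 and 36.6 CPM at 12hpf and 23.3, 26.3 and 31.3 CPM at 6hpf. Its edgeR adjusted p was 0.00213, and 0.0117 without 6hpf replicate 1 and 0.0102 without 6hpf replicate 2. The otic and epidermal competence gene foxi1 fell to 21.2, 20.4 and 20.1 CPM at 12hpf against 95.7, 72.2 and 67.5 CPM at 6hpf (log2 fold-change -1.93 ± 0.13, edgeR adjusted p = 1.16e-06).

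Somite and muscle genes rose in 26 of 39 tested members and fell in 6, with 7 not called, a median log2 fold-change of 2.27 and 6 listed members untested, beside 32.3% higher and 26.5% lower among all genes. At 6hpf 27 of the 39 had a mean of 10 counts. The somite gene meox1 had 160.5, 164 and 186 CPM at 12hpf and 0.0805, 0.579 and 0.157 CPM at 6hpf. The skeletal muscle actin gene acta1a had 77.1, 78.1 and 89.8 CPM at 12hpf and 3 counts in all at 6hpf, a ratio of 1057 with a counting interval of 361 to 5125. The chaperone gene hsp90aa1.1, which with unc45b folds muscle myosin, had 242, 253 and 247 CPM at 12hpf and 1.13, 1.81 and 1.97 CPM at 6hpf (log2 fold-change 7.23 ± 0.14, edgeR adjusted p = 1.99e-09). Muscle contraction genes were thus part of the 12hpf profile.

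The myogenic regulators stood at unequal levels. The gene myf5 had 73.7, 75.1 and 71.3 CPM at 12hpf and 4.43, 5.43 and 3.39 CPM at 6hpf, and myod1 had 16.1, 15.9 and 17.4 CPM at 12hpf and 0.242, 0.362 and 0.394 CPM at 6hpf. The later regulator myog reached 2.86, 3.74 and 3.72 CPM at 12hpf, against 0 counts at 6hpf. Genes of the presomitic mesoderm differed in direction. The gene tbx6 had 227, 211 and 209 CPM at 12hpf and 3.54, 4.199 and 2.44 CPM at 6hpf, and msgn1 had 127, 130.2 and 117 CPM and 68.5, 59.9 and 53.0 CPM. Both segmentation clock genes fell, her1 with 44.6, 47.0 and 40.0 CPM at 12hpf and 77.1, 95.6 and 91.3 CPM at 6hpf (log2 fold-change -1.004 ± 0.10, edgeR adjusted p = 1.74e-05). For her7 the values were 33.9, 36.4 and 30.4 CPM at 12hpf and 61.0, 59.4 and 69.4 CPM at 6hpf. The gene mespab, which sets somite boundaries and is also expressed in the gastrula margin, fell to 9.61, 8.66 and 9.67 CPM at 12hpf against 94.7, 91.4 and 77.1 CPM at 6hpf (log2 fold-change -3.23 ± 0.11, edgeR adjusted p = 1.89e-08).

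In the notochord and floor plate list 20 of 30 tested members rose (all genes 32.3%), 4 fell (all genes 26.5%) and 6 were not called. At 6hpf 24 of the 30 had a mean of 10 counts or more. Collagen genes of the notochord sheath were among the rises, col2a1a with 109.7, 101 and 122 CPM at 12hpf and 0.644, 1.30 and 1.42 CPM at 6hpf, and col8a1a with 125, 121 and 130.2 CPM and 3.22, 3.55 and 2.28 CPM. The signal gene shha, made by both tissues, had 39.3, 39.5 and 33.5 CPM at 12hpf and 10.5, 11.1 and 6.77 CPM at 6hpf. The 4 members that fell were the transcription factor genes noto, ta, foxa and foxa3. The Brachyury gene ta had 129, 129 and 124 CPM at 12hpf and 704, 671 and 741 CPM at 6hpf (log2 fold-change -2.47 ± 0.07, edgeR adjusted p = 6.93e-09). It is expressed all around the gastrula margin and later in notochord and tail bud.

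In the blood, vessel and heart list 17 of 30 tested genes rose, 8 fell and 5 were not called. Among all genes 32.3% were higher and 26.5% lower. The list was also given pax2a, pax8, lhx1a, hnf1ba, osr1 and wt1a, so its counts and sums are not of these tissues alone. The genes pax2a and pax8 are in the neural plate list as well. The median log2 fold-change of the list was 2.63, and 18 of the 30 had a mean of 10 counts at 6hpf. With the filter at 50 counts the list gave 10 higher and 7 lower, with a median of 0.29. The blood and vessel regulators etv2, tal1 and lmo2 rose together, etv2 with 50.1, 51.3 and 55.4 CPM at 12hpf and 1.13, 0.796 and 0.630 CPM at 6hpf. The heart and fin gene hand2 had 37.8, 40.2 and 36.7 CPM at 12hpf and 1 count in all at 6hpf, a ratio of 1489 with a counting interval of 267 to 58846. The gene nkx2.5, which marks heart precursors, was low, with 1.41, 1.79 and 1.24 CPM at 12hpf and 3 counts in all at 6hpf. The summed level of the list ran the other way, at 1108 to 1113 CPM at 12hpf against 1806 to 2039 CPM at 6hpf. Members that fell included lcp1, a leukocyte actin-bundling gene that in these libraries was high in the gastrula, with 91.5, 86.8 and 93.4 CPM at 12hpf and 574, 740.2 and 701 CPM at 6hpf. The endoderm and heart gene gata6 had 62.1, 60.6 and 65.2 CPM at 12hpf and 287, 281 and 332 CPM at 6hpf, while gata5, with 138, 136 and 123 CPM and 143, 145 and 195 CPM, was not called.

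**Figure D3:**
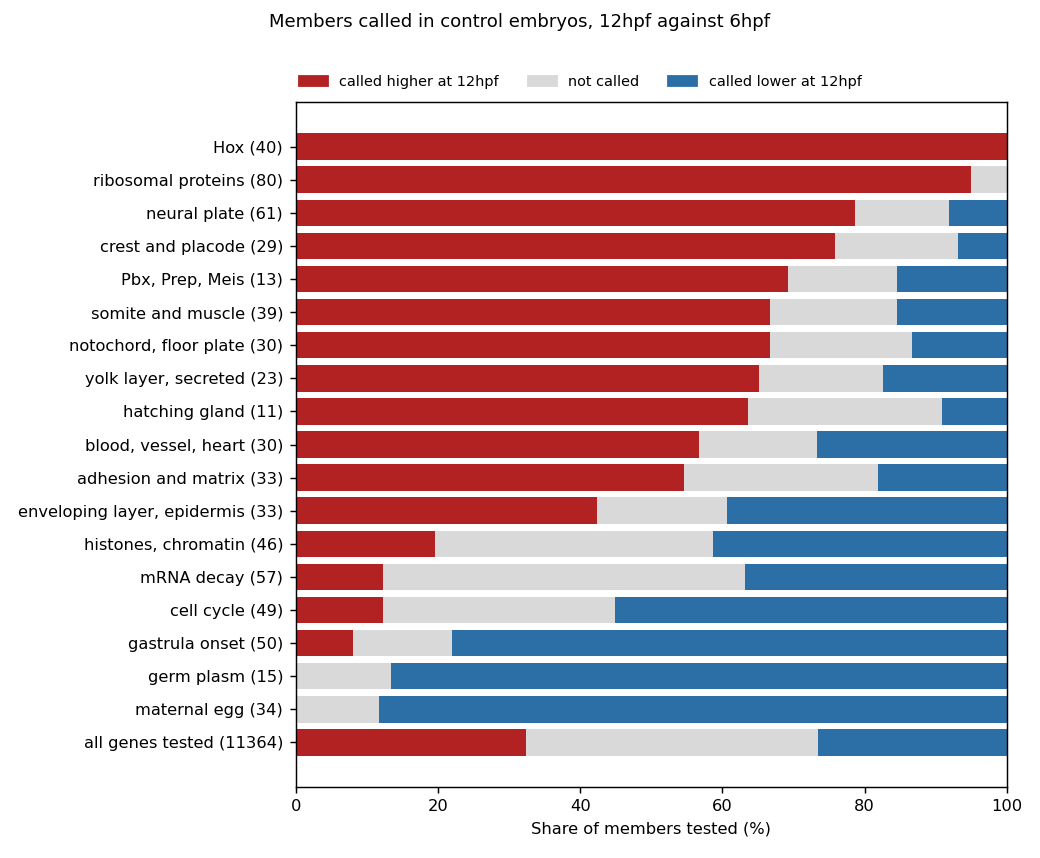
Share of the tested members of each gene list called higher at 12hpf (red), not called (grey) and called lower (blue) in control embryos, with the number tested in parentheses and all 11364 genes at the bottom. The bars run from Hox (40 of 40 higher) to maternal egg genes (30 of 34 lower). The list of Pbx, Prep and Meis genes was also given tgif1.

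Maternal egg genes showed the mirror picture. Of 34 tested members of this list 30 fell, none rose by the test and 4 were not called, with a median log2 fold-change of -3.61, beside 26.5% of all genes called lower. The oocyte linker histone h1m had 2.63, 3.36 and 3.27 CPM at 12hpf and 158, 121 and 149 CPM at 6hpf (log2 fold-change -5.53 ± 0.15, edgeR adjusted p = 6.64e-09). The zinc finger gene cth1 had 0.705, 1.14 and 0.620 CPM at 12hpf and 37.4, 35.8 and 42.4 CPM at 6hpf. The egg envelope genes zp2.1 and zp3b kept more than h1m and cth1. The values of zp2.1 were 61.3, 61.2 and 51.1 CPM at 12hpf and 208, 204 and 209.9 CPM at 6hpf. Those of zp3b were 11.7, 10.8 and 12.0 CPM and 56.3, 56.9 and 55.5 CPM. The 4 members not called were sox19b, igf2bp3, ybx1 and gdf9. The RNA-binding protein gene ybx1 was among the most abundant of the list, with 2224, 2102 and 2183 CPM at 12hpf and 2735, 2819 and 2701 CPM at 6hpf. At an unadjusted p under 0.05 edgeR had 1 member higher, and DESeq2 and limma voom called 0 higher.

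The factors that open the zygotic genome in zebrafish are Pou5f3, Nanog and Sox19b, and they parted company. The gene pou5f3 had 20.9, 19.4 and 22.5 CPM at 12hpf and 2092, 2233 and 2242 CPM at 6hpf, and no gene had a smaller adjusted p (log2 fold-change -6.71 ± 0.09, edgeR adjusted p = 1.06e-09). The gene nanog had 3.26, 3.51 and 2.65 CPM at 12hpf and 104, 87.3 and 129 CPM at 6hpf (log2 fold-change -5.08 ± 0.18, edgeR adjusted p = 2.48e-08). The stages overlapped for sox19b, with 93.8, 88.4 and 92.9 CPM at 12hpf and 90.7, 93.0 and 77.8 CPM at 6hpf, a log2 fold-change of 0.07 ± 0.08 (edgeR adjusted p = 0.447).

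The 15 largest falls were stap2a, alox5b.3, pnp4a, tfec, sox32, add3b, nnr, pou5f3, epyc, lmo7b, ccna1, hic1, vstm2l, vrtn and sebox. The adaptor protein gene stap2a was the highest cleared gene, with 0.334, 0.191 and 0.248 CPM at 12hpf and 82.5, 83.9 and 115 CPM at 6hpf (log2 fold-change -8.47 ± 0.23, edgeR adjusted p = 7.77e-09). The lipoxygenase gene alox5b.3 had 2.82, 1.68 and 1.78 CPM at 12hpf and 668, 753 and 791 CPM at 6hpf. It fell by a like factor without meeting the rule for a cleared gene, since it stayed above 0.5 CPM. The purine enzyme gene pnp4a had 0.779, 0.534 and 0.827 CPM at 12hpf and 217, 204 and 268 CPM at 6hpf. The transcription factor gene tfec, best known from pigment cells of later stages, had 0.185, 0.343 and 0.289 CPM at 12hpf and 54.2, 51.4 and 52.7 CPM at 6hpf.

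Other large falls were genes of the gastrula itself. The endoderm determinant sox32 (casanova) had 2.04, 1.87 and 0.992 CPM at 12hpf and 266, 229.8 and 232 CPM at 6hpf (log2 fold-change -7.19 ± 0.19, edgeR adjusted p = 6.64e-09). The Mix-type homeobox gene sebox had 0.408, 0.114 and 0.372 CPM at 12hpf and 13.8, 9.41 and 24.9 CPM at 6hpf. The T-box gene eomesa, a maternal regulator of endoderm, had 0.185, 0.114 and 0.124 CPM at 12hpf and 12.2, 6.88 and 10.4 CPM at 6hpf. Both genes were among the 10 highest cleared, with tfec, hic1, lmo7b, epyc, vstm2l and 2 loci with clone names after stap2a. The gene vrtn, with 8.05, 7.71 and 6.41 CPM at 12hpf and 401, 434 and 441 CPM at 6hpf, and the adducin gene add3b, with 4.27, 4.05 and 3.02 CPM and 492, 519.5 and 447 CPM, were also among the largest falls and were still detected in every 12hpf library.

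Genes of gastrula onset (Nodal, organizer, ventral and mesendoderm genes) fell in 39 of 50 tested members (all genes 26.5%), rose in 4 (all genes 32.3%) and were not called in 7. Their median log2 fold-change was -1.40, and their summed level was 2369 to 2620 CPM at 12hpf against 6939 to 7570 CPM at 6hpf. Of the Nodal ligands, which induce mesoderm and endoderm, ndr1 had 0.0742, 0.0763 and 0 CPM at 12hpf and 3.95, 3.11 and 6.06 CPM at 6hpf, and ndr2 had 1.11, 1.07 and 0.662 CPM and 9.74, 11.004 and 14.6 CPM. Their target mixl1 had 3.67, 3.17 and 2.52 CPM at 12hpf and 60.3, 55.6 and 97.2 CPM at 6hpf (log2 fold-change -4.50 ± 0.25, edgeR adjusted p = 3.20e-07). The organizer gene gsc had 9.90, 10.6 and 8.85 CPM at 12hpf and 68.4, 55.3 and 54.1 CPM at 6hpf. The BMP antagonist chordin (chd) had 125, 113 and 129 CPM at 12hpf and 349, 461 and 394 CPM at 6hpf.

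The ventral repressor genes vox and vent also fell (log2 fold-change -1.26 and -0.72). The gene vox had 137, 141 and 126 CPM at 12hpf and 368, 279.5 and 319 CPM at 6hpf, and vent had 43.5, 46.5 and 41.8 CPM and 78.3, 62.8 and 76.5 CPM. The call of vent was lost with library totals (log2 fold-change -0.47) and with upper-quartile scaling (-0.54), because the fold-change fell under 1.5. The 4 members that rose were her5, fgf8a, otx1b and znf703. Of these her5, a midbrain-hindbrain gene, had 23.6, 24.1 and 21.7 CPM at 12hpf and 6.20, 6.30 and 3.86 CPM at 6hpf.

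Germ plasm marks the few primordial germ cells, in which maternal transcripts are kept while the body clears them. The germ plasm list was given dazl, tdrd7a, ca15b and buc, which are in the maternal egg list as well. In whole embryos 13 of 15 tested germ plasm genes fell (all genes 26.5%), 0 rose (all genes 32.3%) and 2 were not called (hook2 and celf1), with a median log2 fold-change of -2.94. DESeq2 and limma voom called 0 higher as well, and 1 member (celf1) was higher at an unadjusted p under 0.05. That gene was called higher with library totals (log2 fold-change 0.76), with upper-quartile scaling (0.69) and without 6hpf replicate 1 (0.61). The helicase gene ddx4 (vasa) had 13.5, 11.9 and 10.998 CPM at 12hpf and 239, 245 and 269 CPM at 6hpf (log2 fold-change -4.37 ± 0.10, edgeR adjusted p = 3.54e-09). The gene dnd1, which protects germ cell mRNA, had 3.45, 3.51 and 3.68 CPM at 12hpf and 14.0, 15.8 and 13.5 CPM at 6hpf. The call of nanos3 was the least secure, with 6.94, 5.11 and 3.27 CPM at 12hpf and 10.9, 9.05 and 11.6 CPM at 6hpf (log2 fold-change -1.03 ± 0.25, edgeR adjusted p = 0.00414). The adjusted p was 0.0144 with library totals and 0.0109 with upper-quartile scaling. In single-library omissions it reached 0.0158 without 12hpf replicate 2, 0.0165 without 6hpf replicate 1 and 0.0154 without 6hpf replicate 3.

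For 10 pairs of related genes, labelled as an earlier and a later member, the values were set side by side. The label later does not hold for zar1l, which is also in the maternal egg list. It fell further than its partner zar1 (log2 fold-change -3.98 against -2.69). Of the earlier members 7 fell, 1 rose, 1 was not called and 1 was not tested. Of those labelled later 5 fell, zar1l among them, 2 rose and 3 were not called. These counts do not say whether levels within a pair crossed, and CPM is not corrected for transcript length between genes. Levels of sox19b lay below those of sox2 in every 6hpf library and above them in every 12hpf library. Levels of cdh1 lay above those of cdh2 in 6hpf replicates 1 and 3 and below them in every 12hpf library. The linker histones gave the clearest crossing. While h1m fell, h1f0 rose to 83.9, 85.3 and 98.5 CPM at 12hpf against 9.34, 8.11 and 8.11 CPM at 6hpf (log2 fold-change 3.39 ± 0.11, edgeR adjusted p = 1.52e-08).

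In the cell cycle pairs both members fell, and the earlier member had the larger fold-change. The oocyte cyclin gene ccna1 had 0.556, 0.572 and 0.413 CPM at 12hpf and 48.7, 46.7 and 46.8 CPM at 6hpf (log2 fold-change -6.50 ± 0.13, edgeR adjusted p = 2.28e-09). Its partner ccna2 had 239.9, 231 and 241 CPM at 12hpf and 814, 857 and 822 CPM at 6hpf (log2 fold-change -1.81 ± 0.06, edgeR adjusted p = 1.67e-08). The kinase gene wee2 had 0.482, 0.649 and 0.620 CPM at 12hpf and 18.6, 13.8 and 16.8 CPM at 6hpf, and wee1 had 179.6, 175 and 197 CPM and 367, 381 and 465 CPM. The cap-binding pair was eif4e1b, an oocyte form, with 3.67, 3.93 and 3.14 CPM at 12hpf and 38.4, 41.9 and 40.6 CPM at 6hpf, and eif4ea, which was not called (87.2, 91.0 and 90.4 CPM and 127, 108 and 95.2 CPM). Of the histone mRNA binding pair, slbp2 had 12 counts in all at 12hpf and 46 at 6hpf and was not tested, and slbp fell with a log2 fold-change of -1.61.

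The cadherin pair is often cited as a switch from E- to N-cadherin. Here cdh1 fell to 257, 259 and 225 CPM at 12hpf against 404, 397 and 483 CPM at 6hpf (log2 fold-change -0.79 ± 0.09, edgeR adjusted p = 4.81e-05). The gene cdh2 had 561, 529 and 519 CPM at 12hpf and 323, 448 and 436 CPM at 6hpf (log2 fold-change 0.41 ± 0.12, edgeR adjusted p = 0.00909), under the 1.5-fold threshold. With library totals both directions held but the calls changed, cdh1 losing its call (log2 fold-change -0.54) and cdh2 gaining 1 (log2 fold-change 0.67, and 0.60 with upper-quartile scaling). Between npm2b and npm1a, zar1 and zar1l, both members fell, npm1a (log2 fold-change -0.61) only just, since it lost the call with library totals (-0.36), upper-quartile scaling (-0.42), other count filters (-0.57) and without 6hpf replicate 1 (-0.56). For otx1b and otx2 both rose, otx2 with 107, 95.5 and 108 CPM at 12hpf and 32.4, 40.5 and 18.8 CPM at 6hpf.

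**Figure D4:**
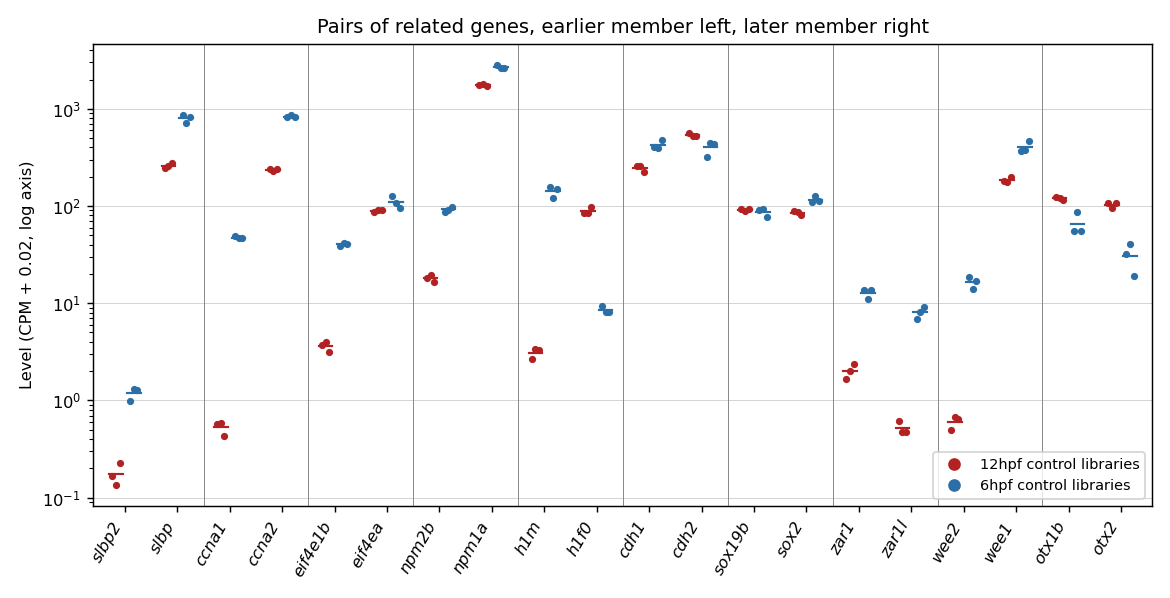
Level in each control library of 10 pairs of related genes, in CPM + 0.02 on a log axis, the earlier member left of the later, with 12hpf (red) left of 6hpf (blue) and a dash for the mean. In h1m and h1f0, and in sox19b and sox2, the order of the members is reversed between the stages. The genes ccna1 and wee2 lie below ccna2 and wee1 at both.

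Ribosomal protein genes rose almost as a block. Of 80 tested RPL and RPS genes 76 were called higher (all genes 32.3%), 0 lower (all genes 26.5%) and 4 not called, with a median log2 fold-change of 1.23 and a highest value of 1.75. Their summed level was 88252, 90675 and 84275 CPM at 12hpf, against 39776, 36651 and 37682 CPM at 6hpf. None of the other 17 lists had a larger sum at 12hpf. The gene rpl5a had 1142, 1184 and 1097 CPM at 12hpf and 355, 322 and 339 CPM at 6hpf (log2 fold-change 1.75 ± 0.06, edgeR adjusted p = 3.15e-08). For the stalk protein gene rplp0 the values were 2878, 2903 and 2809 CPM at 12hpf and 928, 878 and 952 CPM at 6hpf. Among the members not called, rpl12 overlapped, with 1302, 1341 and 1241 CPM at 12hpf and 1244, 1081 and 1131 CPM at 6hpf. At an unadjusted p under 0.05, 78 members were higher and 0 lower, and DESeq2 and limma voom each called 76 higher and 0 lower.

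The genes with most reads were in part the same at both stages. The 10 highest shared 6 genes, the 25 highest 14 and the 100 highest 52. Read counts per gene were not divided by transcript length, so these ranks order shares of reads and not molecules. The translation elongation factor gene eef1a1l1 was first at both stages, with 26819.9, 25389 and 24001 CPM at 12hpf and 28525, 29202 and 29372 CPM at 6hpf. The chromatin protein gene hmga1a was second, with 11403, 11349.7 and 10957 CPM at 12hpf and 17273, 16219.9 and 16362 CPM at 6hpf, a difference just under 1.5-fold (log2 fold-change -0.56 ± 0.05). It was called lower with DESeq2 and with its size factors (log2 fold-change -0.59 in both). The beta-actin gene actb2 overlapped between the stages, with 7434, 7098 and 5860.1 CPM at 12hpf and 6691, 6817 and 6326 CPM at 6hpf.

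Besides these, the apolipoprotein gene apoeb and the chaperone gene hspa8 were among the 10 highest at both stages. The other genes among the 10 highest at 6hpf were khdrbs1a, hnrnpa0l, hnrnpa0b, hnrnpabb and cirbpb, all RNA-binding protein genes, and all 5 fell. The gene hnrnpa0b had 767, 733 and 703 CPM at 12hpf and 6242, 6382 and 6204 CPM at 6hpf (log2 fold-change -3.10 ± 0.06, edgeR adjusted p = 1.99e-09). For khdrbs1a the values were 2455, 2432 and 2282 CPM at 12hpf and 8516, 8656 and 9060.1 CPM at 6hpf. The gene cirbpb, with 5572, 5618 and 4549.6 CPM at 12hpf and 12899, 10966 and 11988 CPM at 6hpf, stayed among the 10 highest at both stages.

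Genes that entered the 10 highest at 12hpf were krt4, hsp90ab1, eef2b and apoa1b. The keratin gene krt4, of the outer enveloping layer, had 8798, 8572 and 7986 CPM at 12hpf and 4107, 4816 and 4447 CPM at 6hpf (log2 fold-change 0.92 ± 0.07, edgeR adjusted p = 2.16e-06). The elongation factor gene eef2b had 6990.0, 6596 and 6418 CPM at 12hpf and 3790.2, 4424 and 4697 CPM at 6hpf, and without 6hpf replicate 1 its fold-change fell under 1.5 (log2 0.57). The apolipoprotein gene apoa1b made the largest move, to rank 10 at 12hpf against rank 755 at 6hpf. It had 4769.7, 4714 and 4373 CPM at 12hpf and 278, 324 and 281 CPM at 6hpf (log2 fold-change 3.97 ± 0.08, edgeR adjusted p = 2.35e-09).

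**Figure D5:**
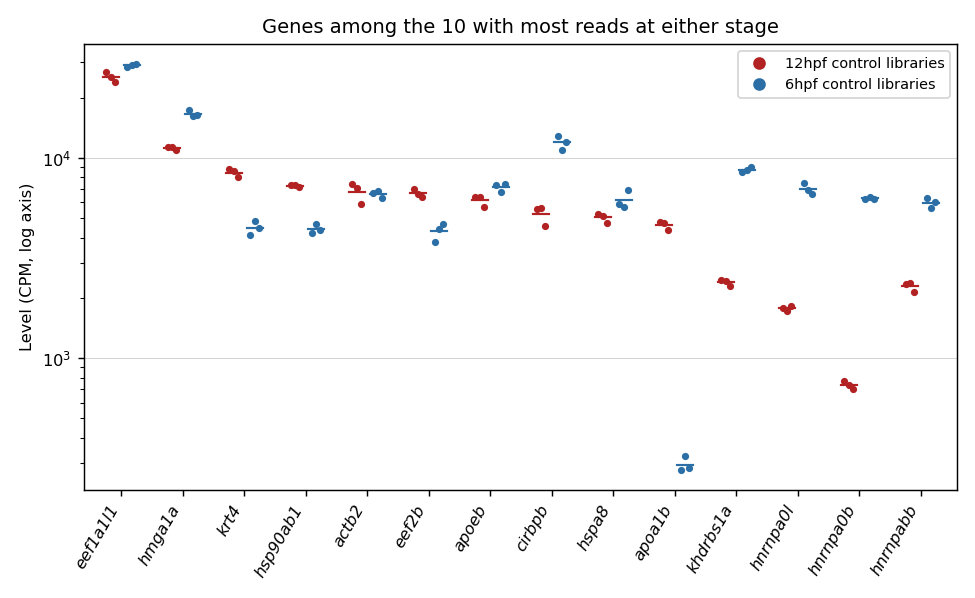
Level in each control library of the 14 genes that were among the 10 highest at either stage, in CPM on a log axis, with 12hpf (red) left of 6hpf (blue) and a dash for the mean. The RNA-binding protein genes at the right are lower at 12hpf, apoa1b is higher, and actb2 overlaps.

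The yolk syncytial layer, which surrounds the yolk and exports its lipid, is the known source of apolipoproteins at these stages. Of 23 tested members of the yolk and secreted protein list 15 rose (all genes 32.3%), 4 fell (all genes 26.5%) and 4 were not called. Their median log2 fold-change was 3.46, and 19 of the 23 had a mean of 10 counts or more at 6hpf. The gene apobb.1 had 3845, 4063 and 3336 CPM at 12hpf and 58.9, 125 and 65.7 CPM at 6hpf, replicate 2 being the high library at 6hpf. The fatty acid binding protein gene fabp2 had 972, 1038 and 1133 CPM at 12hpf and 3.78, 7.75 and 1.65 CPM at 6hpf (log2 fold-change 7.87 ± 0.35, edgeR adjusted p = 8.77e-08). The gene apoeb did not share this change, with 6411, 6358 and 5691 CPM at 12hpf and 7358, 6776 and 7385 CPM at 6hpf, and was not called. The 4 that fell included the regulator hnf4a, with 18.1, 17.2 and 14.7 CPM at 12hpf and 173, 137 and 176 CPM at 6hpf (log2 fold-change -3.28 ± 0.13, edgeR adjusted p = 4.24e-08), and the protease gene ctsla, with 1671, 1582 and 1720.2 CPM and 5714, 5166 and 5974 CPM.

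In the enveloping layer and epidermis list 14 of 33 tested genes rose (42.4%, beside 32.3% of all genes) and 13 fell (39.4%, beside 26.5%), and the median log2 fold-change was -0.11. That median changed sign with library totals (0.14), with upper-quartile scaling (0.08) and without 6hpf replicate 2 (0.11). Claudin genes went both ways, since cldni, described above, had the largest rise of the list (log2 fold-change 8.87 ± 0.23). The keratin genes cyt1 and cyt1l had 3139.9, 3110.0 and 2903 CPM and 2051, 2060.3 and 1855 CPM at 12hpf, against 1168, 1157 and 1002 CPM and 395, 383 and 356 CPM at 6hpf. The basal epidermis regulator tp63 had 162, 158 and 118 CPM at 12hpf and 12.7, 12.5 and 17.6 CPM at 6hpf. Among the falls the claudin gene cldne had 163, 162 and 169 CPM at 12hpf and 749.9, 755 and 675 CPM at 6hpf, and klf2b had 29.0, 28.1 and 22.3 CPM and 171, 188 and 171 CPM. The keratin gene krt8 was not called, with 4218, 4262 and 3963 CPM at 12hpf and 4322, 5213 and 5232 CPM at 6hpf.

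Of 49 tested cell cycle genes 27 fell (all genes 26.5%), 6 rose (all genes 32.3%) and 16 were not called, with a median log2 fold-change of -0.66. The S-phase cyclin gene ccne1 had 42.8, 40.5 and 44.2 CPM at 12hpf and 333, 273 and 267 CPM at 6hpf (log2 fold-change -2.78 ± 0.10, edgeR adjusted p = 3.03e-08). For ccnb1 the values were 304, 293 and 306 CPM at 12hpf and 859.7, 899.6 and 858 CPM at 6hpf, and for ccnd1 591, 605 and 541 CPM at 12hpf and 1930.3, 1807 and 1687 CPM at 6hpf. The 6 genes that rose were ccnd2a, ccnd2b, chek1, orc1 and the replication helicase genes mcm2 and mcm5. The gene mcm2 had 470.5, 459.5 and 447 CPM at 12hpf and 123, 142 and 182 CPM at 6hpf (log2 fold-change 1.63 ± 0.13, edgeR adjusted p = 2.96e-06). With library totals the list gave 11 higher and 22 lower. It was also given ccna1 and wee2, which are in the maternal egg list as well.

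Histone and chromatin genes fell in 19 of 46 tested members (41.3%, beside 26.5% of all genes) and rose in 9 (19.6%, beside 32.3%), with 18 not called. With library totals the list was nearly even, with 13 higher and 14 lower, and with upper-quartile scaling it gave 11 and 15. It was also given h1m, h2af1o, npm2a, npm2b and slbp2, which are in the maternal egg list as well. The summed level of the list was 25595 to 27094 CPM at 12hpf and 39336 to 42357 CPM at 6hpf. The gene h3f3a had 1129.9, 1199.7 and 1111 CPM at 12hpf and 4621, 4097 and 4299 CPM at 6hpf, and hmgb3b had 77.1, 76.3 and 68.4 CPM and 497, 392 and 449 CPM. The DNA demethylase gene tet3 went the other way, with 20.5, 22.3 and 21.2 CPM at 12hpf and 0.403, 0.145 and 0.0787 CPM at 6hpf (log2 fold-change 6.65 ± 0.26, edgeR adjusted p = 4.60e-08), and met the rule for a switched-on gene. The maintenance methyltransferase gene dnmt1 had 162, 156 and 158 CPM at 12hpf and 59.7, 87.8 and 82.7 CPM at 6hpf. Replication-dependent histone mRNAs lack a polyA tail, so polyA libraries such as these do not measure them well.

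Genes of mRNA decay and stability had the largest share of members not called among the 18 lists, with 7 of 57 tested members higher (12.3%, beside 32.3% of all genes), 21 lower (36.8%, beside 26.5%) and 29 not called. With library totals 10 were higher and 17 lower. The list was also given btg4, cth1, zar1, zar1l, eif4e1b, pabpn1l, igf2bp3 and ybx1, which are in the maternal egg list as well. Its counts are therefore not separate from those of the maternal egg list. The m6A reader gene ythdf2, known for clearing maternal mRNA, fell to 92.5, 86.8 and 91.6 CPM at 12hpf against 179, 186 and 197 CPM at 6hpf (log2 fold-change -1.05 ± 0.07, edgeR adjusted p = 9.23e-07). The microRNA processing gene dicer1 rose to 87.9, 89.8 and 84.2 CPM at 12hpf against 21.5, 30.0 and 32.8 CPM at 6hpf (log2 fold-change 1.63 ± 0.14, edgeR adjusted p = 4.79e-06). The RNA-stabilizing gene elavl1 had 637, 642 and 614 CPM at 12hpf and 1549.9, 1569.5 and 1524 CPM at 6hpf.

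Adhesion and matrix genes rose in 18 of 33 tested members (all genes 32.3%) and fell in 6 (all genes 26.5%), with 9 not called. Their median log2 fold-change was 1.51, and 28 of the 33 had a mean of 10 counts at 6hpf. The fibronectin genes, whose protein lines the somites, both rose. The gene fn1b had 482, 392 and 416 CPM at 12hpf and 6.20, 7.38 and 6.38 CPM at 6hpf (log2 fold-change 6.01 ± 0.12, edgeR adjusted p = 2.28e-09), and fn1a had 709, 638 and 559 CPM and 108, 195 and 129 CPM. Their receptor subunit gene itga5 fell to 66.8, 63.0 and 55.5 CPM at 12hpf against 183, 261 and 253 CPM at 6hpf (log2 fold-change -1.91 ± 0.14, edgeR adjusted p = 1.82e-06). The cadherin gene cdh11 had 80.4, 70.8 and 75.0 CPM at 12hpf and 1.37, 1.16 and 0.866 CPM at 6hpf.

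The stage change was set beside that of TALE KD embryos by testing the interaction of stage and knockdown in one edgeR fit over the 12 libraries. The interaction reached an adjusted p of at most 0.01 in 4 of 11450 genes (0.0349%), and in 993 at an unadjusted p under 0.05. With a block on replicate number within each stage these counts were 37 and 1853. The count of 4 was 21 without TALE KD 12hpf replicate 3 and 2 without control 6hpf replicate 2, control 12hpf replicate 1 or 2, or TALE KD 12hpf replicate 2. In TALE KD embryos taken alone 3524 genes rose and 2847 fell of 11523 tested (55.3% called). Of the 196 genes switched on in controls, 195 were called higher in TALE KD embryos and 135 met the switched-on rule there. In the fit without the block none of the 196 had an interaction at this threshold, with 23 at an unadjusted p under 0.05. The interaction was below 0, a smaller rise in TALE KD embryos, for 135 of the 196. These genes were chosen by control values that also enter the interaction. Neither this count nor that of genes meeting the rule in TALE KD embryos can therefore be read as an effect of the knockdown. The lowest interaction, picked out after values were seen, was that of egr2b, which had 0.426, 0.846 and 1.36 CPM in TALE KD embryos and 52.1, 52.5 and 51.4 CPM in controls at 12hpf (interaction -6.36, edgeR adjusted p = 0.310). The switched-on gene not called in TALE KD embryos was gfi1aa, a blood transcription factor gene, with 0.142, 0.343 and 2.02 CPM in TALE KD embryos and 7.08, 7.52 and 7.52 CPM in controls at 12hpf. Its fitted log2 fold-change was 7.47 in TALE KD embryos (edgeR adjusted p = 0.0218) and 6.47 in controls. The TALE KD value rests on 0 CPM in each 6hpf library. The interaction of gfi1aa was 0.84 (edgeR adjusted p = 0.960). Of the 20 cleared genes, 20 were called lower in TALE KD embryos and 11 met the cleared rule. A p above the threshold does not show that the stage changes were equal.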

How the data were processed

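Libraries were prepared from polyA RNA with a stranded Illumina TruSeq kit and sequenced as single-end reads. After read trimming and quality filtering, the authors used RSEM to estimate counts per gene on the DanRer10 zebrafish transcriptome (version 1.2.28 in the submitters' processing notes). The deposited values are expected counts, without normalization, in separate tables for each stage, although the tables are named for TPM. RSEM divides reads shared by close copies, so genes such as he1a and he1b are uncertain singly. The authors tested knockdown against control within a stage with DESeq2, and they also looked at fold-changes of mean TPM between the stages.

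Here the expected counts of the 6 control libraries were joined by gene symbol and rounded to whole numbers (75.4 to 78.0% of values were already whole). Genes averaging 10 counts or more were tested with edgeR 4.0.16's quasi-likelihood test in R 4.3.3 with TMM scaling and Benjamini-Hochberg adjustment over 11364 genes. Calls were made at an adjusted p up to 0.01 where the fold-change was 1.5 or more. Errors given with a log2 fold-change are standard errors from the fit. All log2 fold-changes are 12hpf over 6hpf. Where a stage had 0 counts, a lower bound was set at 3 counts over the group, and where it had 1 to 3 counts a ratio with its exact 95% counting interval is given, which covers counting error only. The levels of TALE KD libraries were scaled over the TALE KD libraries alone. Alternatives used DESeq2 1.42.0 and limma 3.58.1, other scalings and filters, thinning of 12hpf counts to the 6hpf depth, and leaving out each library.

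On simulated counts for this comparison (11321 genes in the fit) 184 of 197 changed genes were recovered with 2 false calls. Few genes were changed there, by modest factors and in both directions alike. In the data 58.9% of genes were called, so the simulation does not test the scaling. The labels call the 3 libraries of a group biological replicates, and the paper calls them independent. Neither says whether their pools came from separate clutches, so p-values measure the spread between these libraries. Replicate numbers are shared by the stages, but deviations of same-numbered control libraries correlated at -0.07, -0.08 and -0.11 between stages, so across stages they share only a number. Whether same-numbered control and TALE KD libraries of a stage belong together was not checked. The study left out 1 outlier replicate at 12hpf without naming it in its text, and no library was left out here.

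The embryo groups compared and the gene lists were chosen with earlier results of these data known. Named genes are the 15 largest changes in each direction (at least 10 CPM at the higher stage, no clone names), the 10 genes with most reads at each stage, the 10 highest switched-on and cleared genes, and members of the lists and pairs. The genes of the interaction test were named after their values were seen. Symbols absent from the tables were looked up among RefSeq synonyms. Sequences, coordinates and transcript lengths were not used here.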

Additional observations from a re-analysis of the deposited data

Results flagged for a closer look

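The change between the stages differed between TALE KD and control embryos in 4 genes by edgeR's interaction test over the 12 libraries. That count ran between 2 and 21 with single libraries left out and was 37 with a block on replicate number within each stage. Each of the 4 is given as a value with no explanation. For aldh1a2, the retinoic acid synthesis gene, the log2 fold-change of 12hpf over 6hpf was -0.40 in TALE KD embryos and -1.77 in controls, an interaction of 1.35 (adjusted p = 0.00107). Its 12hpf libraries had 117, 121 and 105 CPM in TALE KD embryos and 45.5, 39.3 and 47.1 CPM in controls, without overlap, while at 6hpf TALE KD libraries had 159.7, 151 and 141 CPM and controls 153, 166 and 131 CPM. For the septin gene sept2 the log2 fold-changes were -1.80 in TALE KD embryos and -0.98 in controls, an interaction of -0.83 (adjusted p = 0.00107). For hnrnpa1a, an RNA-binding protein gene, they were -1.39 and -0.53, an interaction of -0.88 (adjusted p = 0.00212). For pbx2, a target of the morpholinos, they were 0.49 in TALE KD embryos and -0.30 in controls, an interaction of 0.78 (adjusted p = 0.00212). At 12hpf pbx2 stood at 258, 253.5 and 235 CPM in TALE KD embryos, against 83.2, 90.1 and 87.3 CPM in controls. The interaction is smaller than this gap, so part of the gap was already present at 6hpf.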

How the results depend on the processing

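Over scalings, tools, filters, a replicate block, thinning and single-library omissions, 5618 to 6958 genes were called. The filter at 50 counts gave 5618 of 9511 tested, and no filter beyond 1 count gave 6958 of 14026. No gene called in the reported fit was called in the opposite direction. Stricter fold rules gave fewer calls, with 2324 at 4-fold or more. The block on replicate number gave 6472 calls. The interaction count of 4 became 37 with the replicate block and 2 to 21 when single libraries were left out (21 without TALE KD 12hpf replicate 3, and 2 without control 6hpf replicate 2, control 12hpf replicate 1 or 2, or TALE KD 12hpf replicate 2). Counts of list members in 1 direction that moved were germ plasm genes higher (1 with library totals, upper quartile or without 6hpf replicate 1, in place of 0), crest and placode genes lower (1 with library totals or upper quartile, in place of 2), blood, vessel and heart genes higher (10 under the filter at 50 counts, in place of 17), cell cycle genes higher (11 with library totals, in place of 6), and TALE genes lower (1 with library totals, upper quartile, no filter, the 50-count filter or without 6hpf replicate 1, in place of 2). The cause of these moves was not tested. Some uncalled genes changed sign: with library totals apoeb (0.0323), eef1a1l1 (0.0611), krt8 (0.00822) and pbx4 (0.0627), and without 12hpf replicate 1 actb2 (-0.0219, in a range up to 0.144 without 12hpf replicate 3). Switched-on and cleared genes numbered 215 and 16 with library totals, 201 and 22 after thinning, 176 and 29 at limits of 1 and 10 CPM, and 204 to 233 and 22 to 28 with single libraries left out. Ranks per kilobase were not run, since no transcript lengths were used. A 6hpf library's floor of 3 counts lay at 0.217 to 0.242 CPM, so lower levels there are not measured.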

Other observations

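Plasma proteins of the liver and yolk layer (complement, coagulation and transport proteins) form a group that the lists above did not hold as such, and it was put together after values had been seen. Of 46 such genes listed, 39 were tested, and 38 of them rose, 0 fell and 1 was not called, with a median log2 fold-change of 5.50, beside 32.3% higher among all genes tested. At an unadjusted p under 0.05 edgeR had 39 higher and 0 lower. Since 14 of the 39 had a mean of 10 counts at 6hpf, the rest passed the filter only through 12hpf, which favoured a rise, so the count supports nothing. Among the untested genes c3a.2 averaged 0.295 CPM at 12hpf and 0.793 CPM at 6hpf, and f5 0.0767 and 0.467 CPM. The iron carrier transferrin gene tfa was the highest, with 2769.8, 2864 and 2549 CPM at 12hpf and 242, 291 and 209.7 CPM at 6hpf (log2 fold-change 3.46 ± 0.12). The protease inhibitor gene serpina1l had 420.3, 429.8 and 447 CPM at 12hpf and 1.77, 1.67 and 0.394 CPM at 6hpf, and the complement gene c3a.1 had 237, 264 and 229.6 CPM and 4.59, 5.43 and 6.06 CPM. Members with 0 counts at 6hpf included the fibrinogen gene fgg (11.2, 11.4 and 9.59 CPM at 12hpf, at least 140.1-fold higher) and the complement gene c8a (8.16, 8.66 and 9.30 CPM at 12hpf, at least 113-fold higher). The retinol carrier gene rbp4 had 47.7, 50.6 and 50.8 CPM at 12hpf and 0.483, 0.0724 and 0.236 CPM at 6hpf. It was among the 13 of 46 members that met the switched-on rule, beside 196 of all 14850 genes.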
